A study of Pinus pinaster with 21 samples.

Results

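The comparison described here sets the small RNA of maritime pine (Pinus pinaster) roots 2 h after irrigation with 3 mM NH4Cl against that of roots irrigated with water. Each group has 3 libraries, and each library stands for a pool of 10 seedlings from 1 of 3 independent runs of the experiment. The 6 libraries are paired by the number of that run. Members are the identifiers with a count above 0 in all 6 libraries. There are 747 of them, out of 13207 identifiers that at least 1 of the 6 libraries lists and 32711 in the whole count table. The set was fixed by listing in both groups alike and used no difference between them.

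All seedlings were 1 month old, came from the Segura-Alcaraz provenance and had been acclimated for 3 days on a nutrient solution that lacked any nitrogen source, the water group included. The ammonium group then received 80 mL of 3 mM NH4Cl and the water group 80 mL of water. A root sample mixes all root cell types of its 10 seedlings. A difference in the number of cells of one type and a difference in the RNA of each cell cannot be told apart in such a pool. Small RNA of 18 to 30 bp was cut from gels before sequencing. The identifiers are serial labels with no sequence or gene name in the sources used here, so the labelled tissue could not be checked against marker genes and no sequence is shown.

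Ammonium is a nitrogen source that roots take up through ammonium transporters and bind into glutamine and glutamate by the glutamine synthetase and glutamate synthase cycle. Conifers of acidic soils often take it up more readily than nitrate, while a large supply can be toxic. Plant microRNAs are cut from hairpin precursors by a Dicer-like enzyme and guide Argonaute proteins to messenger RNAs of matching sequence, which are then cleaved or translated less. Several microRNA families of flowering plants respond to nitrogen supply and act on transcription factors and nutrient transporters of the root. Which of the pine identifiers belong to such families is not known here.

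The 3 ammonium libraries held 7720980, 8095647 and 8183070 counts in experiments 1 to 3, and the water libraries held 6801072, 7775804 and 6786727. No library had a count from 1 to 4, so a 0 means that a library does not list the identifier and is not read as absence. The members took 66.0%, 66.9% and 63.3% of the ammonium libraries and 72.6%, 67.5% and 67.9% of the water libraries. These shares did not overlap and averaged 65.4% ± 1.92 (SD, n = 3) after ammonium and 69.4% ± 2.82 (SD, n = 3) after water. The difference of -3.94 percentage points had an exact permutation p = 0.1, two-sided, which is the smallest that 3 against 3 libraries allow. Sign flips within experiments gave an exact p = 0.25, two-sided, the smallest for 3 pairs.

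The members were the deeper part of the listed small RNAs. Their median count was 865.5, against 322 for the 571 identifiers that 5 of the 6 libraries list and 37 for the 7717 that only 1 lists. Among the 571, the missing library was an ammonium library for 302 and a water library for 269. The lowest count of a member was 7, in MIR_4443, and 78 members had at least 1 library under 100 counts. Outside the 6 libraries the members stayed widely listed, with 680 of the 747 in at least 15 of the 21 libraries and 584 in all 9 libraries sampled at 2 h.

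No member passed the test for a difference between 3 mM ammonium and water at 2 h. The edgeR quasi-likelihood test, with the experiment as a block, called 0 of 747 identifiers (0%) at a Benjamini-Hochberg adjusted p under 0.05, and its smallest adjusted p was 0.749. At an unadjusted p under 0.05 there were 41, where 37.35 would be expected if no member differed. Of these, 15 (2.01% of the members) stood above water and 26 (3.48%) below it. DESeq2 called 0, with 47 at an unadjusted p under 0.05. Limma-voom also called 0, with 46, and limma-trend called 0, with 44.

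Levels below are CPM, the counts of a member per 1000000 member counts of its library, scaled with TMM factors. A log2 difference is the mean of the 3 within-experiment differences, ammonium minus water, and its standard error (SE) and 95% interval come from limma with the experiment as a block. The median absolute log2 difference over the members was 0.16, and the median SE was 0.17. For 667 of the 747 members (89.3%) the interval lay within 1 log2 unit of 0, which bounds the difference below a doubling or a halving. For 191 (25.6%) it lay within 0.5 log2 units, and for the rest it reached past 0.5 in at least one direction. An absolute difference over 1 log2 unit was found in 6 members, 3 above and 3 below water, and none of the 6 was called.

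**Figure D1:**
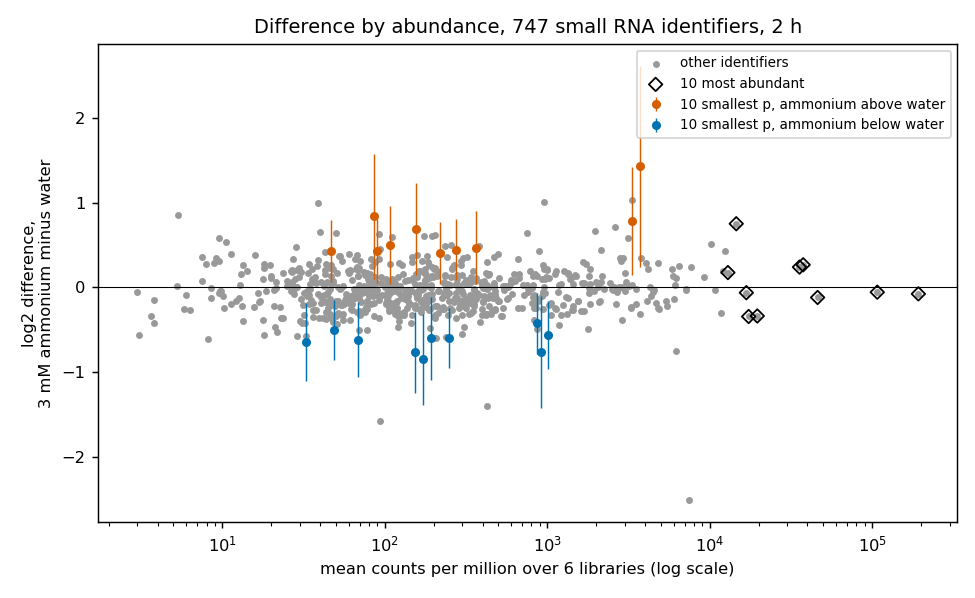
Mean abundance of the 747 members (x axis, CPM over the 6 libraries, log scale) against the log2 difference between 3 mM ammonium and water at 2 h (y axis). Bars are 95% intervals of the 20 members with the smallest p, diamonds mark the 10 most abundant members, and only 6 points lie more than 1 log2 unit from 0.

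The balance of signs depended on the scaling. With TMM factors, 324 members stood above water and 423 below, and in all 3 experiments alike 79 stood above and 145 below. With RLE factors the split was 371 against 376, with upper-quartile factors 431 against 316 and with whole-library totals 218 against 529. Among members with a mean of at least 10 CPM, TMM factors gave 392 against 332. Whole-library totals shifted the median log2 difference of all members to -0.12. The 3 ammonium values all lay above the 3 water values for 21 members (2.81%) and all below for 57 (7.63%), with TMM factors. The corresponding counts were 32 and 32 with RLE factors, 49 and 15 with upper-quartile factors and 5 and 69 with whole-library totals. No direction of the members as a group is therefore read from these counts.

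The 10 most abundant members carried 50.7%, 49.9% and 47.9% of the member counts in the ammonium libraries and 53.3%, 48.0% and 50.0% in the water libraries. The groups overlapped, and the difference of -0.947 percentage points had an exact permutation p = 0.6, two-sided. With 1 experiment left out, that difference ran from -2.37 to -0.130 points. MIR_828, the most abundant, took 16.1%, 21.5% and 18.9% of the member counts after ammonium and 19.1%, 19.4% and 20.8% after water (difference -0.924 points, exact permutation p = 0.7, two-sided). Its share was thus both lowest and highest in ammonium libraries. MIR_352 was the steadiest of the 10 after ammonium, at 104587, 107588 and 103170 CPM, against 94970, 111496 and 123604 CPM after water. The other 8 members lay between 12950 and 46170 CPM on average.

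Several abundant members differed more between experiment 1 and the other two than between treatments. MIR_6 stood at 66391, 34737 and 28794 CPM after ammonium and at 83006, 32045 and 32048 CPM after water. MIR_36 stood at 29185, 9888 and 11177 CPM after ammonium and at 25804, 9001 and 15857 CPM after water. In both, experiment 1 was the highest in either treatment and the treatments overlapped.

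In other abundant members the ammonium and water libraries of experiment 1 were far apart while those of experiments 2 and 3 were close. MIR_57 stood at 67519, 28428 and 31686 CPM after ammonium and at 32164, 32456 and 33533 CPM after water. MIR_30 stood at 9662, 19973 and 20878 CPM after ammonium and at 2943, 16000 and 17995 CPM after water. MIR_57 was above water in experiment 1 only, whereas MIR_30 was above water in all 3 experiments, by 1.72 log2 units in experiment 1 and by 0.32 and 0.21 in the others. The mean difference of MIR_30 was 0.75 (SE 0.33, 95% interval from -0.09 to 1.59, with an edgeR adjusted p of 0.749), the largest among the 10 most abundant members.

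MIR_353 was the one abundant member whose treatments did not overlap, with 14495, 18996 and 18543 CPM after ammonium and 25621, 20723 and 19431 CPM after water. This depended on the scaling. In CPM over the 584 members that all 9 libraries at 2 h list, its treatments overlapped (20865 after ammonium in experiment 2, 20305 after water in experiment 3). It differed by -0.34 log2 units (SE 0.20, 95% interval from -0.85 to 0.18, edgeR adjusted p = 0.77), of which -0.82 came from experiment 1 against -0.13 and -0.07 in the others. MIR_86 was below water in experiments 1 and 2 and above it in experiment 3 (20013, 10488 and 13145 CPM after ammonium, 35258, 13086 and 12241 CPM after water). MIR_183 and MIR_62 differed by 0.24 and 0.17 log2 units (SE 0.20 and 0.23), with 57712 against 35787 CPM and 19107 against 11044 CPM in experiment 1.

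**Figure D2:**
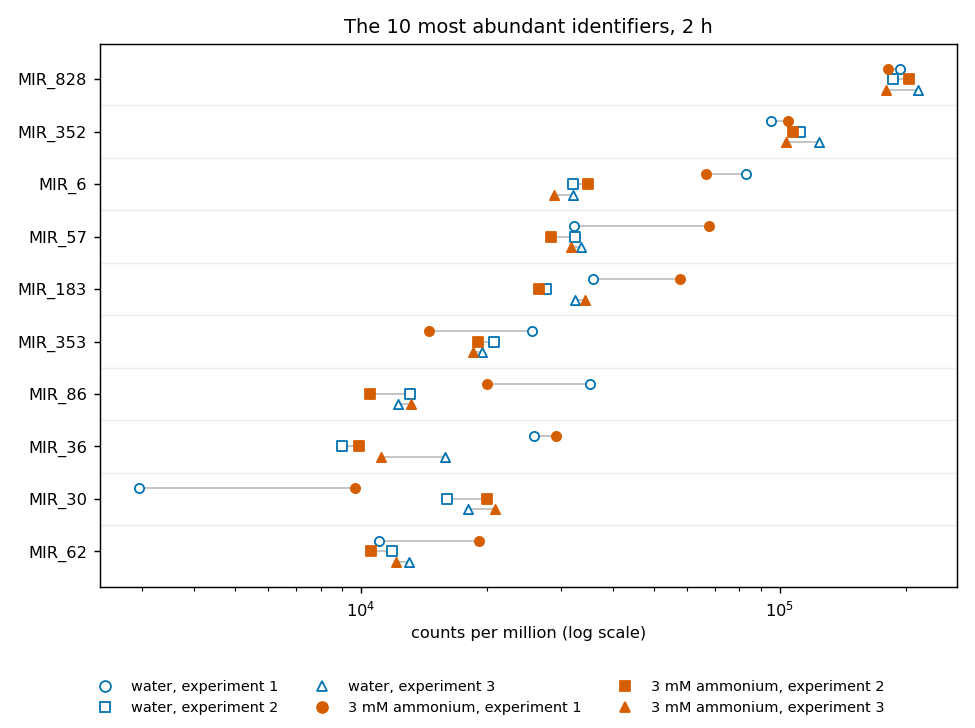
CPM (x axis, log scale) of the 10 most abundant members in each library, with open symbols for water, filled symbols for 3 mM ammonium, 1 marker shape per experiment and a grey line joining the libraries of an experiment. Experiment 1 (circles) has the longest line for MIR_6, MIR_30, MIR_57, MIR_183, MIR_353, MIR_86 and MIR_62.

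The members with the smallest p are given next by their values, without being called changed. The 10 on each side of 0 all had an adjusted p of 0.749 in edgeR. Under each of the 5 scalings tried, all 20 kept the sign of their difference. Another scaling moves all mean differences by the same amount, and the median over all members ran from -0.12 to 0.047 log2 units. Each of the 20 differences was larger than these shifts, so the kept signs add no support. In all 20, that sign was also the same in 3 of 3 experiments. The same held for 39 of the 41 members at an unadjusted p under 0.05. Over all 747 members, 79 stood above and 145 below water in all 3 experiments. A small p with the experiment as a block favours such agreement, so the constant signs of the 20 add no support.

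On the higher side, 5 of the 10 had ammonium values that all lay above the water values, against 21 of all 747 members (2.81%). The 10 were picked by p in the same 6 libraries, so this separation is no separate result. MIR_4830 stood at 284, 311 and 360 CPM after ammonium and at 211, 248 and 241 CPM after water. It had the smallest p on this side (0.0202, edgeR, unadjusted), with a difference of 0.45 log2 units (SE 0.14, interval 0.08 to 0.81) that ranged from 0.33 to 0.58 over the experiments. MIR_5125 was the tightest within groups, at 111, 102 and 98.1 CPM after ammonium and 72.6, 76.4 and 80.9 CPM after water, or 0.43 log2 units apart (SE 0.15). For MIR_4826 the values were 366, 403 and 496 CPM after ammonium and 231, 364 and 329 CPM after water, so the lowest ammonium value was only just above the highest water value.

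MIR_808 had the largest difference upward of all 747 members. It stood at 7686, 4063 and 4278 CPM after ammonium and at 1195, 3554 and 1611 CPM after water, or 5342 ± 2033 (SD, n = 3) against 2120 ± 1259 (SD, n = 3). Ammonium stood 1.43 log2 units above water (SE 0.47, 95% interval from 0.24 to 2.61), with 2.69 in experiment 1, 0.19 in experiment 2 and 1.41 in experiment 3, and 0.85 on average without experiment 1. The direction was thus shared while the size was not. MIR_5410 showed a different kind of unevenness, with 113, 105 and 100.4 CPM after ammonium and 93.7, 69.3 and 32.3 CPM after water. Its ammonium libraries were alike and its water libraries spread, and the mean difference was 0.84 log2 units (SE 0.29), or 0.44 without experiment 3.

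The other 5 on the higher side overlapped between treatments, with levels that differed between experiments. MIR_865 was at 128, 157 and 267 CPM after ammonium and at 71.8, 75.9 and 239 CPM after water. MIR_752 was at 7580, 2582 and 2981 CPM after ammonium and at 2748, 1827 and 2264 CPM after water. Its difference was 0.79 log2 units (SE 0.25), or 0.49 without experiment 1. MIR_1176, MIR_1373 and MIR_5405 differed by 0.40, 0.50 and 0.43 log2 units (SE 0.14, 0.18 and 0.14). The overlap of MIR_1176 depended on the scaling. In CPM over the 584 members that all 9 libraries at 2 h list, it did not overlap (239, 285 and 305 after ammonium, 187, 191 and 223 after water). Within each experiment all 5 stood above their own water library.

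On the lower side, 6 of the 10 had ammonium values that all lay below the water values, against 57 of all 747 members (7.63%). These 10 too were picked by p in the same 6 libraries. MIR_1232 had the smallest p of all members (0.00614, edgeR, unadjusted). It stood at 170, 203 and 216 CPM after ammonium and at 244, 303 and 348 CPM after water, a difference of -0.59 log2 units (SE 0.14, interval -0.95 to -0.24) that lay between -0.52 and -0.69 in each experiment. Each experiment gave nearly the same difference although the level itself differed among experiments in both treatments. A p with the experiment as a block is small where the 3 differences agree, so this agreement is part of why MIR_1232 was listed. MIR_1092 stood at 734, 798 and 932 CPM after ammonium and at 1296, 1071 and 1256 CPM after water, or 821 ± 101 (SD, n = 3) against 1208 ± 120 (SD, n = 3), and differed by -0.56 log2 units (SE 0.16).

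MIR_4971 had the largest downward difference of the 10, -0.85 log2 units (SE 0.21, interval -1.38 to -0.31). Its values were 152, 88.3 and 135 CPM after ammonium and 197, 214 and 251 CPM after water. MIR_3837 was at 150, 112 and 203 CPM against 220, 224 and 241 CPM after water, with water libraries that lay close together, and its difference of -0.60 log2 units was -0.40 without experiment 2. MIR_1460 stood at 57.3, 48.7 and 53.7 CPM after ammonium and at 112, 67.8 and 71.6 CPM after water, -0.62 log2 units apart and -0.40 without experiment 1. MIR_4333, the last of the 6, was at 46.3, 37.4 and 37.3 CPM against 64.8, 55.8 and 50.6 CPM after water. Its 3 within-experiment differences had the smallest SD of the 20, 0.07 log2 units around a mean of -0.50.

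The remaining 4 on the lower side, MIR_1182, MIR_200, MIR_5417 and MIR_7015, overlapped between treatments and stood below water within each experiment. MIR_1182 was at 51.3, 81.5 and 230 CPM after ammonium and at 115, 129 and 320 CPM after water, so experiment 3 was the highest in both. MIR_200 was at 966, 417 and 863 CPM after ammonium and at 1317, 607 and 1056 CPM after water, so experiment 2 was the lowest in both. MIR_7015 was at 296, 887 and 1014 CPM after ammonium and at 809, 1311 and 1217 CPM after water, a difference of -0.76 log2 units (SE 0.26) that was -0.37 without experiment 1. MIR_5417 differed by -0.64 log2 units (SE 0.18), most of all in experiment 1.

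**Figure D3:**
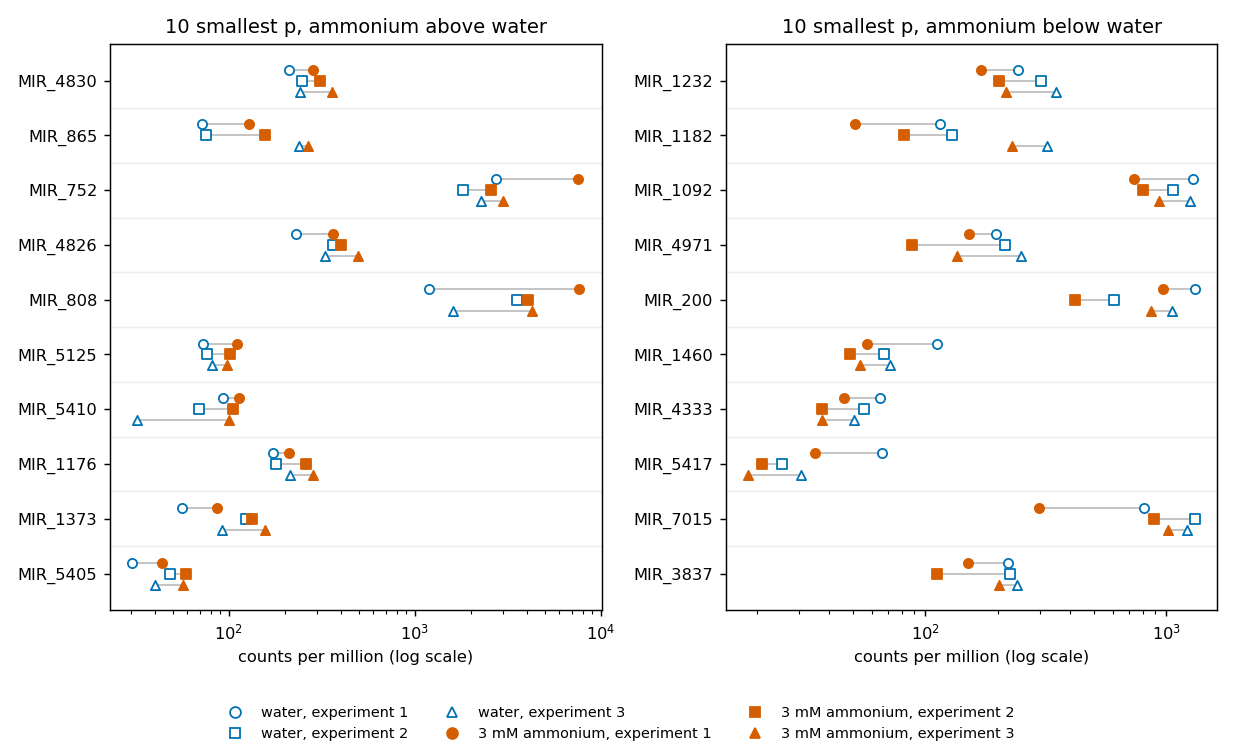
CPM (x axis, log scale) in each of the 6 libraries for the 10 members with the smallest p above water (left) and below water (right), ordered by p. Open symbols are water, filled symbols 3 mM ammonium, marker shapes the experiments, and all grey lines of a panel run the same way because the sign agreed in 3 of 3 experiments for each of the 20.

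Without the experiment as a block, the same test called 0 members and left 19 at an unadjusted p under 0.05. With 1 experiment left out, 0 were called without experiment 1, 1 without experiment 2 and 2 without experiment 3. None of these 3 was among the 20 described above. MIR_91 was called without experiment 3 (adjusted p = 1.53e-05, edgeR), and its values were 5458, 3498 and 2481 CPM after ammonium and 1040, 816 and 6612 CPM after water. It was thus 2.39 and 2.10 log2 units above water in experiments 1 and 2 and at -1.41 in experiment 3.

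MIR_1086, also called without experiment 3 (adjusted p = 0.0239, edgeR), stood at 92.8, 1591 and 1226 CPM after ammonium and at 12.9, 952 and 1818 CPM after water. MIR_320, called without experiment 2 (adjusted p = 0.0479, edgeR), stood at 128, 5.39 and 67.4 CPM after ammonium and at 2.05, 1012 and 6.24 CPM after water. In each of the 3, the experiment left out went the other way. These refits rest on 2 pairs of libraries with 1 residual degree of freedom for each identifier.

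Of the 6 members over 1 log2 unit, 3 had a single library that stood apart. MIR_4743 had -2.51 log2 units (SE 1.38, interval -6.02 to 0.99), the largest absolute difference of the 747. It stood at 62.1, 9431 and 7217 CPM after ammonium and at 7612, 10834 and 9549 CPM after water, so the ammonium library of experiment 1 was alone in being low, with 282 counts. MIR_4640 stood at 111, 118 and 3.65 CPM after ammonium and at 118, 105 and 102 CPM after water. MIR_4510 stood at 369, 555 and 38.7 CPM after ammonium and at 476, 681 and 452 CPM after water. In both of these it was the ammonium library of experiment 3 that stood apart.

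These 3 were the only members in which 1 library lay more than 3 log2 units from the median of the other 5 while those 5 lay within 1 log2 unit of that median. In all 3 the library apart was low and was an ammonium library. This description was chosen after the values were seen, and its cause was not tested. It leaves out identifiers that 1 library does not list at all, since these are not members. Among the 571 identifiers listed by 5 of the 6 libraries, the missing library was an ammonium library for 302 and a water library for 269. In CPM over the 584 members that all 9 libraries at 2 h list, MIR_4743 was at 8641, 10196 and 11135 after 0.1 mM ammonium at 2 h. On that scale it was at 8200, 11506 and 9979 after water. It was listed by 18 of the 21 libraries of the study. The libraries before irrigation of experiments 1 and 3 and the 3 mM library of experiment 2 at 24 h did not list it.

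The members with the widest spread of within-experiment differences, among those with a mean of at least 100 CPM, were MIR_320, MIR_4743, MIR_91, MIR_225 and MIR_208. MIR_320 reached that mean only through the water library of experiment 2, with 5534 counts. The same library enters its spread, so its place in this list rests on that library. MIR_320 had an SD of 7.18 log2 units over the 3 differences with few counts in 3 libraries (10 and 28 after water in experiments 1 and 3, and 31 after ammonium in experiment 2). MIR_225 was at 2325, 2181 and 288 CPM after ammonium and at 2484, 618 and 1328 CPM after water. MIR_208 was at 9127, 6896 and 1005 CPM after ammonium and at 6186, 6631 and 7439 CPM after water. Their mean differences were -0.16 and -0.76 log2 units (SE 0.73 and 0.68), smaller than or near their SE.

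**Figure D4:**
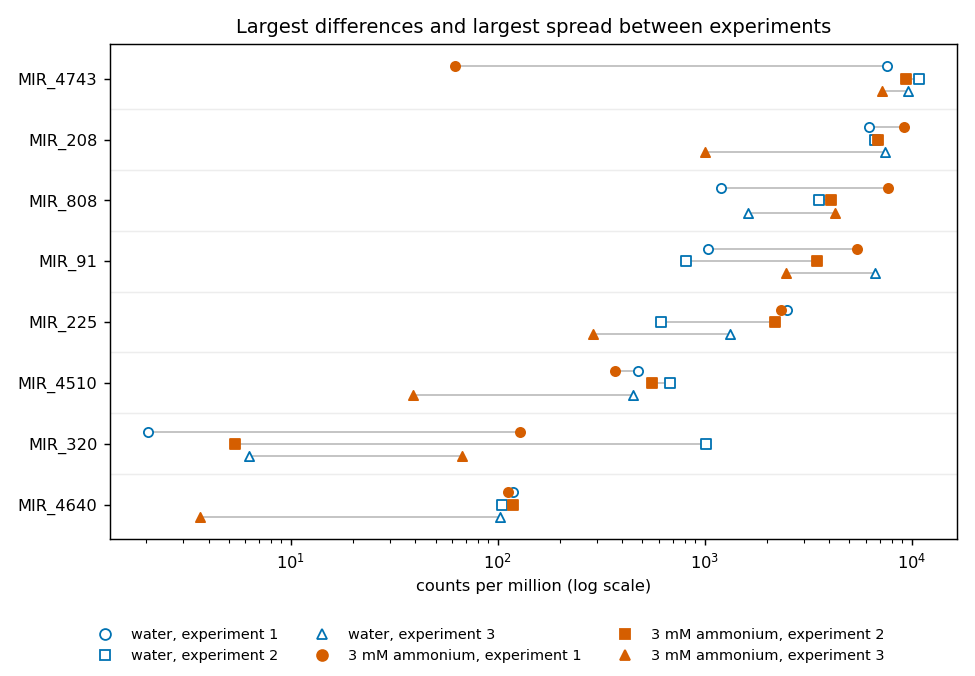
CPM (x axis, log scale) in each library of the members with the largest absolute difference or the largest spread of within-experiment differences, ordered by mean abundance. MIR_4743, MIR_4510 and MIR_4640 each have 1 filled symbol far to the left of the other 5 libraries, and the lines of MIR_91, MIR_225, MIR_208 and MIR_320 run in both directions.

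Over all members, the differences between experiments were set beside those between treatments. The median absolute log2 difference between ammonium and water was 0.30, 0.19 and 0.21 in experiments 1 to 3. Between experiments it was 0.33, 0.31 and 0.20 among the water libraries and 0.27, 0.30 and 0.21 among the ammonium libraries. In both sets the pairs with experiment 1 were the wider ones. The number of members over 1 log2 unit apart was 41, 13 and 25 between the treatments of experiments 1 to 3, against 28 to 65 between experiments, where 4 of the 6 pairs exceeded 41.

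The experiment accounted for 53.9% of the sum of squares of the log2 CPM values over all members, ammonium against water for 14.3% and the remainder for 31.9%. The experiment has 2 degrees of freedom, the treatment 1 and the remainder 2. Experiment 1 was the most distinct, since its 2 libraries lay both above or both below the other 4 for 227 members, against 110 for experiment 2 and 118 for experiment 3. The TMM factor of its ammonium library was 0.890, the lowest of the 6, where the others lay between 0.973 and 1.06. Without experiment 1 the split was 379 members above and 368 below water, and 28 stood at an unadjusted p under 0.05.

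**Figure D5:**
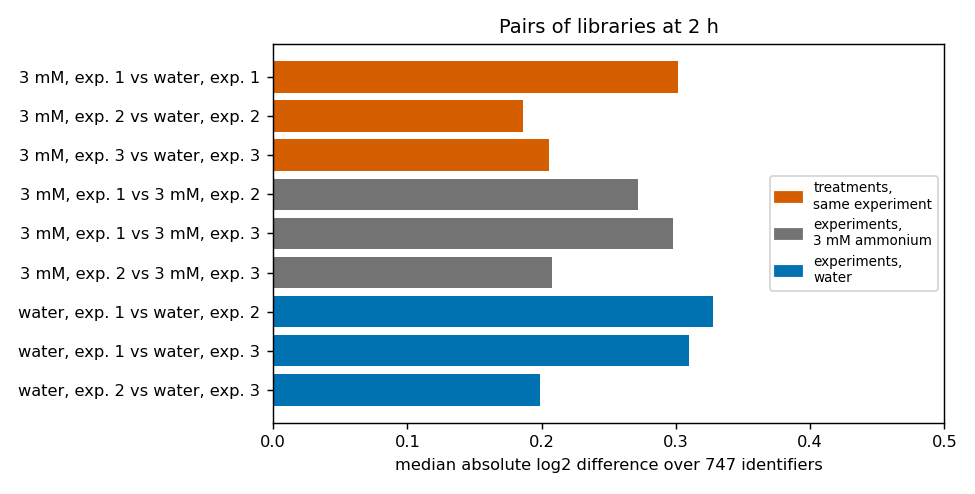
Median absolute log2 difference over the 747 members (x axis) for 9 pairs of libraries at 2 h, with bars starting at 0. Treatment pairs within an experiment (orange) run from 0.19 to 0.30 and pairs between experiments (grey and blue) from 0.20 to 0.33, and the treatment pair of experiment 2 is the lowest of the 9.

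The median size of the differences lay between 0.15 and 0.26 log2 units in every class of abundance. The 23 members under 10 CPM had a median absolute difference of 0.26 log2 units and a median SE of 0.22. For the 252 members from 10 to under 100 CPM, these values were 0.18 and 0.18, for the 348 from 100 to under 1000 CPM 0.15 and 0.16, and for the 109 from 1000 to under 10000 CPM 0.16 and 0.17. The 15 members of at least 10000 CPM held 55.6% of the member counts and had a median absolute difference of 0.24 and a median SE of 0.20. The deepest counts thus did not give the smallest error, and 0 of these 15 stood at an unadjusted p under 0.05.

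Of the 20 members with the smallest p, 8 above and 6 below water had values in all 0.1 mM and water libraries at 2 h. The 0.1 mM libraries share their water libraries with the 3 mM comparison, so only values are given side by side. Mean log2 differences of 0.1 mM from water ran from -0.02 (MIR_5125) to 0.99 (MIR_865) for the 8 and from -0.53 (MIR_200) to -0.04 (MIR_3837) for the 6. The levels that follow are in CPM over the 584 members that all 9 libraries at 2 h list. MIR_4830 was at 318, 370 and 330 CPM at 0.1 mM, at 320, 342 and 388 CPM at 3 mM and at 227, 263 and 252 CPM after water. MIR_5125 was at 87.8, 73.3 and 80.6 CPM at 0.1 mM, at 125, 112 and 106 CPM at 3 mM and at 78.2, 81.2 and 84.6 CPM after water. At 0.1 mM, MIR_4830 lay above all 3 water values, as at 3 mM, and MIR_5125 overlapped the water values. Both were picked for 3 mM values above these same water libraries, which favours a 0.1 mM value above them too. The share of all members with 0.1 mM values above all 3 water values was not counted. No repeat at a second dose is therefore read from MIR_4830. MIR_808 was at 4852, 3681 and 1542 CPM at 0.1 mM and at 1287, 3774 and 1683 CPM after water, so 0.1 mM was above water in experiment 1 and below it in experiments 2 and 3. MIR_1176 went the same ways, at 227, 184 and 202 CPM against 187, 191 and 223 CPM.

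Below water at 3 mM, MIR_1092 was at 1199, 1000.3 and 980 CPM at 0.1 mM, at 827, 876 and 1003 CPM at 3 mM and at 1396, 1137 and 1313 CPM after water. MIR_1232 was at 202, 274 and 301 CPM at 0.1 mM, at 192, 223 and 232 CPM at 3 mM and at 262, 321 and 364 CPM after water. In each experiment the 0.1 mM value of MIR_1232 lay between the other two. In MIR_1092 this was so in experiments 1 and 2, while in experiment 3 the 0.1 mM value was the lowest. Both members were picked for 3 mM values below these same water libraries, which favours a 0.1 mM value in between. No effect of dose is read from this order. MIR_4971 was at 148, 263 and 241 CPM at 0.1 mM and at 213, 227 and 262 CPM after water, so these groups overlapped.

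The 24 h groups have water libraries of their own. Libraries were used there where they list at least 75% of the members, a limit set after the table was seen, which left 3 water libraries and the 3 mM libraries of experiments 1 and 3, because the 3 mM library of experiment 2 lists 130 of the 747 (17.4%). The 24 h levels are in CPM over the 504 members that all 5 of these libraries list, so they are not on the scale of the 2 h levels. Over the 533 members listed by both libraries of both experiments, 271 stood above and 262 below water at 24 h. Of the 10 members with the smallest p above water at 2 h, 6 had such values, and 4 of the 6 stood above water on average. For MIR_5125 and MIR_5405 this was by only 0.0058 and 0.015 log2 units. Only 1 of the 6, MIR_4830, stood above water in both experiments. It was at 364 and 303 CPM at 3 mM and at 251 and 187 CPM in the water libraries of the same experiments, but at 376 CPM in the third water library.

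Of the 10 below water at 2 h, 4 had values at 24 h, and 3 of the 4 stood below water on average. MIR_1092 and MIR_4971 did so in both experiments. In the wider lists at an unadjusted p under 0.05 at 2 h (edgeR), 10 members above water and 14 below it had values at 24 h. Of these, 5 of the 10 stood above water on average and 8 of the 14 below it. The share of all members with the same sign in both 24 h experiments was not counted, so neither persistence nor its lack is read from these lists. MIR_4971 was at 121 and 152 CPM at 3 mM and at 195, 223 and 222 CPM after water. MIR_1092 was at 947 and 1083 CPM at 3 mM and at 1191, 1281 and 1151 CPM after water. In both, the ammonium values lay below all 3 water values. Over the 504 members that all 5 libraries list, this was so for 33 (6.55%), and both ammonium values lay above all 3 water values for another 33 (6.55%). MIR_5125 had values of 104 and 102 CPM at 3 mM and 99.0, 116 and 106 CPM after water, so its groups overlapped at 24 h. Of the 2 libraries at 3 mM, only that of experiment 1 listed MIR_808, at 9025 CPM against 3342 CPM in the water library. None of these 24 h values was tested here.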

How the data were processed

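The deposited table holds whole-number read counts per identifier that the authors left unnormalised. The submitters' processing notes name bcl2fastq and edgeR. The aligner, miRNA caller and filters were not given in the sources used here. No identifier has a count from 1 to 4. The members, lists and tests were chosen with earlier results of these data known.

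Counts of the 747 members were tested across all of them with edgeR 4.0.16 in R 4.3.3 (glmQLFit and glmQLFTest, two-sided, TMM factors on the member sums, experiment as a block) with Benjamini-Hochberg adjustment. DESeq2 1.42.0 and limma 3.58.1 were alternatives. Log2 differences used limma on log2 CPM with no pseudocount. The code was tested on simulated data. Named members were the 10 most abundant, the 10 with the smallest p on either side, the 5 with the largest absolute difference and the 5 with the largest spread over experiments at a mean of at least 100 CPM; MIR_1086 and MIR_4443 were chosen after seeing their values. Pairing comes from the labels, by which the experiment was run 3 separate times and equal replicate numbers share a run. Deviations from the group means correlated at 0.41, -0.0010 and 0.27 within experiments 1 to 3 and at -0.11 on average between them. The 3 deviations of a group sum to 0, which ties the value between experiments to those within them, so it is no independent comparison. Depth was 6786727 to 8183070 counts per library.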

Additional observations from a re-analysis of the deposited data

How the results depend on the processing

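The edgeR, DESeq2 and limma tests called 0 members in 13 of the 15 alternative settings. With 1 experiment left out, 0 to 2 were called and 28 to 62 stood at an unadjusted p under 0.05. Under the block, dropping 1 library has the same effect on the contrast as dropping its experiment. At an unadjusted p under 0.05 there were 19 with no replicate block, 23 of 472 members with a mean of at least 100 CPM, and 224 of 8537 identifiers in a fit of all 21 libraries with filterByExpr. The split turned to 392 above and 332 below water at a mean of at least 10 CPM, to 259 and 213 at 100 CPM and to 312 and 272 among the 584 members listed by all 9 libraries at 2 h, with TMM factors recomputed each time. The cause was not tested. With upper-quartile factors, MIR_828, MIR_352 and MIR_36 turned from slightly below to 0.0035, 0.023 and 0.017 log2 units above water.

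With 1 experiment left out, the log2 difference of 10 named members changed sign. It ran from -0.18 to 0.014 for MIR_828, from -0.11 to 0.044 for MIR_352, from -0.24 to 0.026 for MIR_6, from -0.092 to 0.49 for MIR_57, from -0.16 to 0.16 for MIR_36 and from -0.090 to 0.34 for MIR_62. The wider ranges were -2.45 to 0.044 for MIR_4640, -2.02 to 4.70 for MIR_320, -1.15 to 0.86 for MIR_225 and -1.37 to 0.31 for MIR_208. The difference in the share of the 10 most abundant members ran from -2.37 to -0.130 percentage points. The difference in the share of MIR_828 ran from -2.44 to 0.0937 percentage points, and its paired sign-flip test gave an exact p = 0.75, two-sided.

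The median SE was 0.22 log2 units for members under 10 CPM, 0.16 to 0.18 in the 3 classes from 10 to under 10000 CPM and 0.20 at 10000 CPM or more. With 3 pairs of libraries, the median 95% interval reached 0.43 log2 units to either side of the difference.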
